A study of Mus musculus with 9 samples.

Results

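The 10 genes described here encode the mouse enzymes that build ceramide from palmitate and pass it on to sphingomyelin and glucosylceramide. They were chosen by name, as 10 of the 55471 gene IDs measured, and all 10 were found: *Sptlc1*, *Sptlc2*, *Kdsr*, *Cers2*, *Cers4*, *Cers5*, *Cers6*, *Degs1*, *Sgms1* and *Ugcg*. Their RNA was followed by RNA sequencing in 9 libraries of embryoid bodies (EBs), which are clumps of differentiating embryonic stem cells (ESCs), after 3 days as hanging drops and 3 days of differentiation. The groups, of 3 libraries each, were wild-type EBs (WT), Tnfaip2-/- EBs (KO) and Tnfaip2-/- EBs given 8 μM palmitic acid (PA) together with 8 μM of its carnitine ester, palmitoyl-L-carnitine (PC) (KO_PAPC). By the study's methods PA/PC was present while the EBs formed as well as during differentiation. A figure legend of the study gives a vehicle control for the KO EBs sequenced beside them. *Tnfaip2*, a target of TNFα and NFκB signalling, was disrupted with CRISPR/Cas9 in ESCs of the E-14 line, and the KO EBs derive from 1 clone, so that clone and genotype cannot be told apart. Each library was made from a pool of EBs, and WT EBs given PA/PC were not analysed here, so an effect of PA/PC in WT EBs cannot be read. Lipids were not among the values analysed here, and every level below is one of RNA.

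De novo sphingolipid synthesis starts on the endoplasmic reticulum, where serine palmitoyltransferase joins serine to palmitoyl-CoA, which makes palmitate a direct substrate of the route. The product is reduced, acylated by one of the ceramide synthases, each with its own preference for acyl chain length, and desaturated to ceramide. Ceramide then receives a head group and becomes sphingomyelin or a glycosphingolipid, lipids of the plasma membrane that are known to be remodelled when pluripotent cells differentiate.

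The promoter windows of 3 genes are shown because these genes carry the main contrasts: *Sptlc1* and *Sptlc2*, which encode the subunits of 1 enzyme and had like differences in every comparison, and *Cers4*, which had the largest difference under PA/PC, in the direction opposite to theirs. Each window runs 5′ to 3′ along the gene from 250 bases before to 50 bases after the RefSeq start site (GRCm38.p6). Capitals mark matches on either strand to CCAAT, the box that NF-Y binds, or to GGGCGG, the GC box, and no match overlapped another.
Sptlc1 (chr13:53377312-53377611, minus strand): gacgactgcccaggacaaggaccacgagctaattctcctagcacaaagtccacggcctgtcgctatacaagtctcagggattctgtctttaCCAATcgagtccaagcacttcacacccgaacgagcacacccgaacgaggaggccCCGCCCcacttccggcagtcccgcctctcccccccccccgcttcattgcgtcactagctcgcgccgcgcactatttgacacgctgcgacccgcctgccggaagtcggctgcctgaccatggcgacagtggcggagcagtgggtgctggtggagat
Sptlc2 (chr12:87388306-87388605, minus strand): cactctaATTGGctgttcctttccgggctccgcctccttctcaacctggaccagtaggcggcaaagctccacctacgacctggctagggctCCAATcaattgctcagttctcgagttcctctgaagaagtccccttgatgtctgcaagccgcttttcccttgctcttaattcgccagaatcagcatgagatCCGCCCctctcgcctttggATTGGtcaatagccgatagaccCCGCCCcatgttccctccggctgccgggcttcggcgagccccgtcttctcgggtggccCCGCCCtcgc
Cers4 (chr8:4493155-4493454, plus strand): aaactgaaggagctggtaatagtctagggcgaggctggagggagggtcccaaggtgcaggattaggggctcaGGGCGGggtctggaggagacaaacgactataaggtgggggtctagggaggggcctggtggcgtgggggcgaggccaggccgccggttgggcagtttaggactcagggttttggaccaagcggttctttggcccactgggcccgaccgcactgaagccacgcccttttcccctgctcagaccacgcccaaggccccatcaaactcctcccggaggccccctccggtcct
The *Sptlc1* window held 1 CCAAT box and the *Sptlc2* window 3, and in both windows a CCAAT box in the forward orientation stood at position -159 from the start site. The *Cers4* window held no CCAAT box and 1 GC box, against 1 GC box in *Sptlc1* and 3 in *Sptlc2*. Of the members not shown, *Cers2*, *Cers6* and *Sgms1* had a CCAAT box in 1 window each. Of the members with a box, *Sptlc1*, *Sptlc2*, *Cers6* and *Sgms1* were lower in KO_PAPC versus KO, and *Cers2* was higher. The members without a box, *Kdsr*, *Cers4*, *Cers5*, *Degs1* and *Ugcg*, were all higher. The members did not have equal numbers of windows: *Cers2* and *Sgms1* had several each, and their other windows held no box. The end of the only *Degs1* window was not found in that gene's own transcripts, so its place among the members without a box is uncertain. Whether the box and the direction go together was not tested. These letters are common: of 32851 promoter windows of the same length, 37.4% held a CCAAT box and 35.7% a GC box. No binding was measured, and the matches are a description of the sequence only.

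Depth was even, with 27362913 to 28914312 counts per library, and the members held between 494 and 5402 counts in each library. *Tnfaip2* itself was close to the detection floor in all groups (6 to 16 counts in WT, 5 to 8 in KO and 14 to 25 in KO_PAPC), and a frameshift need not lower the transcript, so it gave no check of the KO label. The cell states of the EBs differed between groups, as read from summed levels of marker lists in CPM (reads of a gene on a common library size, with totals scaled by TMM factors). The 7 markers of pluripotent cells summed to 2287 to 2343 CPM in WT, 3746 to 3782 in KO and 2358 to 2417 in KO_PAPC. The near-equal sums of WT and KO_PAPC hide a split: in KO_PAPC versus WT 3 of these markers were higher and 4 lower. *Pou5f1* had means of 657, 669 and 912 CPM in WT, KO and KO_PAPC, and *Zfp42* 242, 488 and 136. The 6 neuroectoderm markers summed to 128 to 133, 36.8 to 40.6 and 231 to 236 CPM, and the 6 mesoderm markers to 37.7 to 40.2, 27.7 to 29.3 and 53.2 to 56.6 CPM. The mesoderm markers did not move as 1: *Eomes* holds most of the sum, *T* had means of 1.83, 0.281 and 16.7 CPM in the same order of groups, and *Hand1* 0.746, 4.36 and 0.235. In KO_PAPC versus WT 2 of their 5 tested genes were higher, 1 lower and 2 not called. The 7 endoderm markers summed to 208 to 215, 139 to 145 and 22.8 to 23.9 CPM. *Dab2* holds most of the sum in WT and KO (means of 112 and 83.2 CPM). In KO versus WT 6 of the 7 were lower, but *Afp* was higher, with means of 10.6 CPM in KO and 4.56 in WT. The 7 fibroblast markers, a check for feeder cells, summed to 41.7 to 43.3, 29.0 to 29.1 and 14.5 to 15.9 CPM, with *Dcn* at 0 to 5 counts and *Postn* at 0 to 8. Against WT that fall was one of *Pdgfra* (means of 34.0, 12.8 and 2.53 CPM). In KO_PAPC versus WT *Col1a1*, *Col1a2*, *Col3a1* and *Thy1* were called higher, 4 of the 5 tested. *Thy1* had means of 4.21, 11.1 and 5.21 CPM, so from KO to KO_PAPC it was lower too, beside *Pdgfra*. Each of these lists differed between the groups, as the synthesis genes did, and their part in the results below was not tested. In such bulk libraries fewer cells of a type and less RNA per cell cannot be told apart.

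Read per kilobase of exon, the scale on which levels can be set between genes, the enzyme of the last step to ceramide was the most abundant. *Degs1* stood first in each group, with 60.7 ± 2.15 CPM per kilobase in WT (SD, n = 3), 52.6 ± 0.958 in KO and 79.9 ± 1.45 in KO_PAPC. *Cers5* stood second in each, at 29.0 ± 0.798, 25.6 ± 1.07 and 30.9 ± 0.313 CPM per kilobase. In WT the order went on with *Cers2*, *Ugcg*, *Sptlc1*, *Sptlc2*, *Kdsr*, *Cers4*, *Cers6* and *Sgms1*, and no neighbours overlapped in their ranges over libraries. In KO the ranges of *Ugcg* and *Cers2*, of *Cers2* and *Sptlc1*, and of *Sgms1* and *Cers6* overlapped, so these places in the order are not resolved. In KO_PAPC the same held for *Cers2* and *Ugcg* and for *Sptlc2* and *Kdsr*. The low place of *Sgms1* depends on the length used, since its exons cover 10546 bases and its longest transcript 4036: per kilobase of longest transcript *Sgms1* stood above *Cers6* in all 3 groups.

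Comparing KO with WT EBs, the 3 genes that were higher in KO were both subunits of serine palmitoyltransferase and the sphingomyelin synthase gene *Sgms1*, while the reductase, the 4 ceramide synthases, the desaturase and *Ugcg* were lower. All 10 members passed edgeR's quasi-likelihood test (Benjamini-Hochberg adjusted p under 0.05), 3 higher and 7 lower, and all 10 had groups that did not overlap. Calls were the rule in these libraries, with 73.8% of all 17355 genes tested called (36.8% higher, 37.1% lower) and 75.3% not overlapping, so the number of calls is no result about these genes. The median log2 fold change of the 10 was -0.15, against -0.0059 over all genes. The differences were modest, with a median absolute log2 fold change of 0.20 against 0.36 over all genes.

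Comparing KO_PAPC with KO EBs, *Kdsr*, *Cers2*, *Cers4*, *Cers5*, *Degs1* and *Ugcg* were higher under PA/PC, and *Sptlc1*, *Sptlc2*, *Cers6* and *Sgms1* were lower. All 10 passed the test and did not overlap, where 81.8% of 17167 genes passed (39.6% higher, 42.2% lower) and 82.2% did not overlap. The median log2 fold change was 0.28 for the 10 and -0.017 over all genes, and the median absolute values were 0.38 and 0.54. On plain library totals, in place of TMM scaling, these medians were 0.12 and -0.18, and again 6 members were higher and 4 lower. *Cers4* was the 1 member called against a minimum fold of 1.5, which 37.8% of all genes passed. In the other comparisons no member passed that minimum, and 21% of genes did between KO and WT and 17.7% between KO_PAPC and WT. The KO libraries enter both comparisons, so a KO library that lies off pushes the 2 differences of a gene apart, and the values are given side by side for that reason only.

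Comparing KO_PAPC with WT EBs, which asks how far the treated knockout lay from wild type, 5 members were higher, 4 were lower and *Cers2* was not called. Of all 16655 genes 70.6% were called (34.2% higher, 36.4% lower), and 72.6% did not overlap, as did 9 of the 10 members. The median log2 fold change was 0.014, against -0.017 over all genes, and the median absolute value was 0.18 against 0.33. This comparison also depends on the scaling: TMM factors were 0.921 to 0.926 in KO_PAPC and 1.04 in each other library, rounded, and plain library totals shifted the median of all genes to -0.18. On library totals 2 members were higher and 6 lower. No member differed by more than 2-fold in any of the 3 comparisons, where 15.8%, 27.8% and 13.7% of all genes did.

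**Figure D1:**
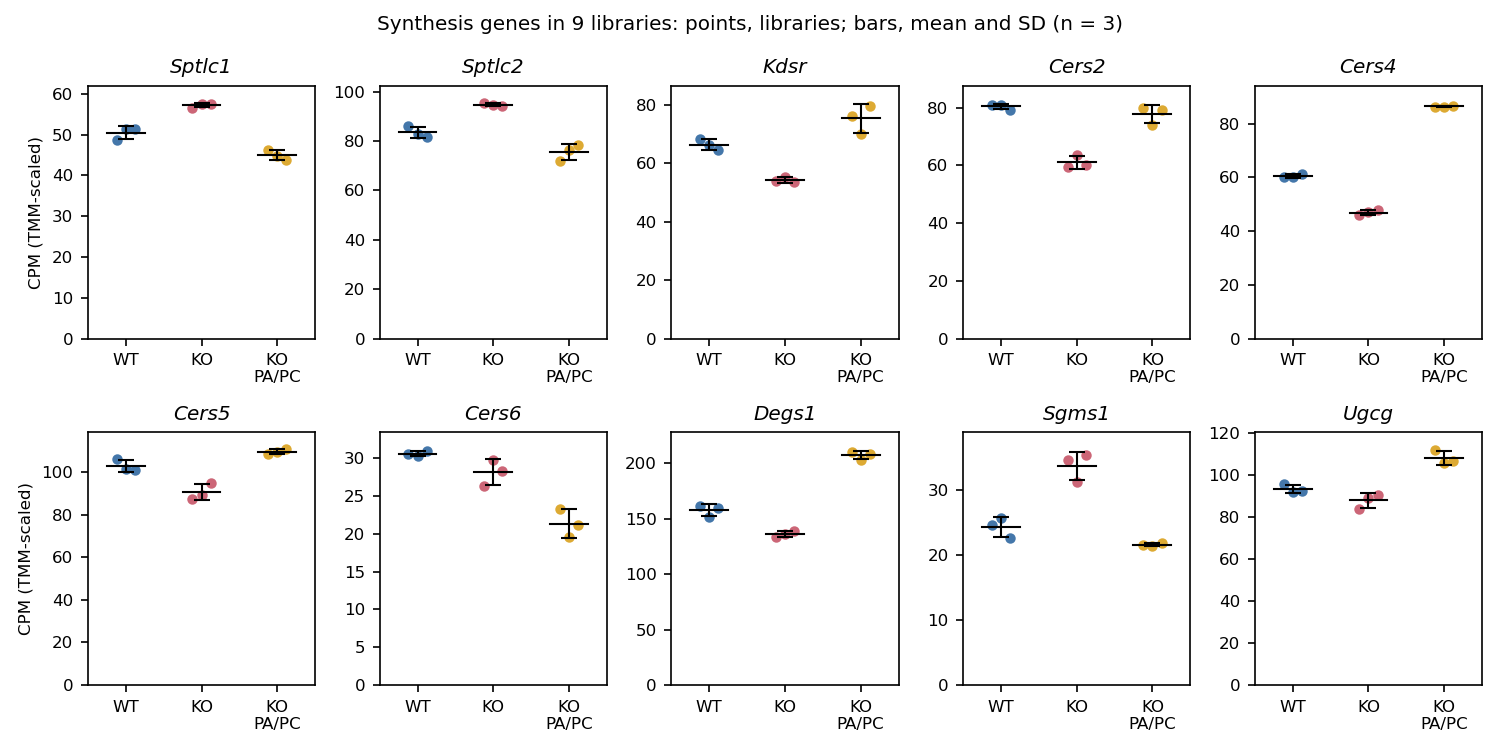
Level of each of the 10 synthesis genes in CPM (y axis, from 0, TMM-scaled) in WT, KO and KO_PAPC EBs (x axis); points are libraries and bars are the mean and SD (n = 3). KO libraries sit highest for *Sptlc1*, *Sptlc2* and *Sgms1* and lowest for *Kdsr*, *Cers2*, *Cers4*, *Cers5*, *Degs1* and *Ugcg*.

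Serine palmitoyltransferase makes the first and rate-limiting step, and its catalytic core pairs SPTLC1 with SPTLC2. *Sptlc1* (ENSMUSG00000021468, chromosome 13, 53332748 to 53377397 of GRCm38, minus strand) stood at 48.6, 51.5 and 51.4 CPM in the WT libraries, 56.6, 57.4 and 57.6 in KO and 46.3, 44.7 and 43.9 in KO_PAPC. *Sptlc2* (ENSMUSG00000021036, chromosome 12, 87305058 to 87388355, minus strand) stood at 86.1, 82.7 and 81.7 CPM in WT, 95.3, 94.6 and 94.2 in KO and 71.8, 76.2 and 78.2 in KO_PAPC. For both genes the KO libraries were highest, the KO_PAPC libraries lowest, and no groups overlapped. KO versus WT gave log2 fold changes of 0.18 ± 0.0363 (SE, edgeR adjusted p = 5.14e-05) for *Sptlc1* and 0.18 ± 0.0309 (adjusted p = 4.08e-06) for *Sptlc2*. KO_PAPC versus KO gave -0.35 ± 0.0393 (adjusted p = 3.57e-10) for *Sptlc1* and -0.33 ± 0.0344 (adjusted p = 5.00e-11) for *Sptlc2*. Against WT the KO_PAPC libraries were lower, with -0.18 ± 0.0416 (adjusted p = 6.03e-04) and -0.16 ± 0.0382 (adjusted p = 8.46e-04). The subunit transcripts thus moved in step, and their ratio per kilobase, *Sptlc2* over *Sptlc1*, came to 0.725 ± 0.0435 in the WT libraries (SD, n = 3), 0.725 ± 0.0109 for KO and 0.736 ± 0.0511 for KO_PAPC. Their summed level was 24.5 ± 0.191 CPM per kilobase in WT, 27.8 ± 0.0797 in KO and 21.9 ± 0.0595 in KO_PAPC.

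The small subunits and the ORMDL proteins set the activity of this enzyme, and their transcripts did not share 1 direction. *Sptssa*, the small subunit that activates the core, stood at 39.5, 40.6 and 41.4 CPM in WT, 33.8, 33.3 and 35.0 in KO and 73.2, 67.2 and 69.6 in KO_PAPC. Its log2 difference between KO and WT was -0.25 ± 0.0416 (edgeR adjusted p = 1.95e-06), and KO_PAPC exceeded KO by 1.04 ± 0.0417 (adjusted p = 7.62e-23). *Ormdl3*, which encodes a ceramide-sensing inhibitor of the enzyme, stood at 50.9, 53.5 and 54.8 CPM in WT, 59.2, 58.9 and 57.9 in KO and 33.1, 34.3 and 33.7 in KO_PAPC. Thus KO_PAPC EBs had the highest levels of the activating subunit and the lowest of this inhibitor, while those of the core subunits were lowest. The log2 fold change of *Ormdl3* in KO_PAPC versus KO was -0.80 ± 0.0409 (adjusted p = 1.05e-19). The related inhibitor gene *Ormdl1* went the other way, with -0.24 ± 0.0529 in KO versus WT (adjusted p = 1.32e-04) and 0.48 ± 0.0562 in KO_PAPC versus KO (adjusted p = 1.22e-09). *Ormdl2* had log2 fold changes of 0.34 and -0.16 in the same comparisons, but 66.7% of its exon bases overlap *Dnajc14*, so its reads are uncertain, and the second call was lost without KO replicate 1 (adjusted p = 0.0599) or KO_PAPC replicate 1 (adjusted p = 0.0514). *Sptlc3* and *Sptssb*, the alternative subunits, had at most 1 count in a library and were not tested.

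*Kdsr* (ENSMUSG00000009905, chromosome 1, 106720459 to 106759727, minus strand) encodes the reductase that turns ketosphinganine into sphinganine. It stood at 68.3, 66.2 and 64.5 CPM in WT, 53.7, 55.3 and 53.4 in KO and 76.2, 70.0 and 79.6 in KO_PAPC, with no overlap between groups. It was therefore lowest in KO, the group in which the preceding enzyme's transcripts were highest. Its log2 fold changes were -0.30 ± 0.0353 for KO versus WT (edgeR adjusted p = 4.18e-09) and 0.47 ± 0.0402 for KO_PAPC versus KO (adjusted p = 3.41e-13). In KO_PAPC versus WT it was 0.17 ± 0.0426 (adjusted p = 8.13e-04), a call that was lost on library totals, with 0.0090 (adjusted p = 0.858).

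The 4 ceramide synthases were lower in KO than in WT, *Cers6* only slightly and not securely, and parted under PA/PC. Mammalian ceramide synthases differ in the acyl-CoA they use: CERS2 prefers very long chains, CERS4 long to very long chains, and CERS5 and CERS6 prefer palmitoyl-CoA, the activated form of the fatty acid supplied here. *Cers2* (ENSMUSG00000015714, chromosome 3, 95314791 to 95323599, plus strand) stood at 81.0, 81.1 and 79.3 CPM in WT, 59.4, 63.8 and 60.1 in KO and 79.8, 74.1 and 79.4 in KO_PAPC. It was lower in KO than in both other groups, which overlapped each other. The log2 difference between KO and WT was -0.40 ± 0.0339 (edgeR adjusted p = 1.39e-12), and KO_PAPC lay above KO with 0.34 ± 0.0380 (adjusted p = 2.37e-10). Between KO_PAPC and WT the value was -0.057 ± 0.0370 (adjusted p = 0.169), and -0.023 without KO_PAPC replicate 2. On library totals this difference was -0.22 and was called.

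*Cers4* (ENSMUSG00000008206, chromosome 8, 4493026 to 4531680, plus strand) had the largest difference of the 10 in KO_PAPC versus KO. It stood at 60.1, 60.0 and 61.4 CPM in WT, 45.9, 47.0 and 47.8 in KO and 86.4, 86.2 and 86.7 in KO_PAPC, so that the KO_PAPC libraries lay above the WT as well as the KO range. KO versus WT gave -0.37 ± 0.0360 on the log2 scale (edgeR adjusted p = 4.28e-11). KO_PAPC versus KO gave 0.88 ± 0.0360 (adjusted p = 1.35e-22), a 1.84-fold rise, and KO_PAPC versus WT gave 0.51 ± 0.0350 (adjusted p = 2.59e-12). Of the 51-base words in its transcripts, the length of a read, 8.43% also occur in other genes, mainly the pseudogene *Vmn2r-ps89* and *Gm36956*.

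The palmitoyl-preferring pair did not move alike. *Cers5* (ENSMUSG00000023021, chromosome 15, 99734881 to 99772885, minus strand) stood at 106, 101 and 101 CPM in WT, 87.6, 89.3 and 94.8 in KO and 109, 109 and 111 in KO_PAPC. The KO libraries were lowest, with a log2 difference from WT of -0.18 ± 0.0324 (edgeR adjusted p = 5.88e-06), and KO_PAPC exceeded KO by 0.27 ± 0.0331 (adjusted p = 2.72e-09). Against WT the KO_PAPC value of 0.085 ± 0.0336 (adjusted p = 0.0281) is not secure. It was lost without KO_PAPC replicate 3 (adjusted p = 0.0881), WT replicate 2 (adjusted p = 0.102) or WT replicate 3 (adjusted p = 0.129), and became -0.080 on library totals. *Cers6* (ENSMUSG00000027035, chromosome 2, 68861441 to 69114282, plus strand) stood at 30.5, 30.3 and 31.0 CPM in WT, 26.4, 29.7 and 28.4 in KO and 23.4, 19.5 and 21.2 in KO_PAPC. It was the member whose levels went down from WT to KO and again to KO_PAPC. Its log2 fold change was -0.40 ± 0.0588 in KO_PAPC versus KO (adjusted p = 1.19e-07) and -0.53 ± 0.0572 in KO_PAPC versus WT (adjusted p = 1.16e-08). In KO versus WT it was -0.12 ± 0.0477 (adjusted p = 0.0229), a call lost in DESeq2 (adjusted p = 0.108), without KO replicate 1 (-0.076, adjusted p = 0.189) and without WT replicate 3 (adjusted p = 0.0595).

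As a mix, the 4 ceramide synthases summed to 59.3 ± 0.914 CPM per kilobase in WT, 49.2 ± 1.40 for KO and 61.5 ± 1.11 for KO_PAPC (SD, n = 3). Of this sum *Cers5* and *Cers6* together made up 54.7% ± 0.526 in WT (SD, n = 3), 58.4% ± 1.15 for KO and 54.2% ± 0.646 for KO_PAPC. The KO libraries held a larger share than either other group, 3.69 percentage points above WT and 4.25 above KO_PAPC, each with a two-sided exact permutation p = 0.1, the smallest that 3 against 3 libraries can give. KO_PAPC and WT differed by -0.559 points (exact permutation p = 0.4), with a range from -0.267 without WT replicate 1 to -0.917 without KO_PAPC replicate 2. Without scaling by length this difference was -4.24 points (exact permutation p = 0.1), so it depends on the length scaling. The share of *Cers4* was 8.32% ± 0.214 in WT, 7.78% ± 0.0744 in KO and 11.5% ± 0.185 in KO_PAPC, and that of *Cers6* was 5.82% ± 0.128, 6.45% ± 0.256 and 3.91% ± 0.303. The order of WT and KO_PAPC in the summed level turned with the scaling, since on library totals the sums were 61.7 CPM per kilobase in WT, 51.1 in KO and 56.9 in KO_PAPC. The shares are taken within a library and do not depend on it.

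**Figure D2:**
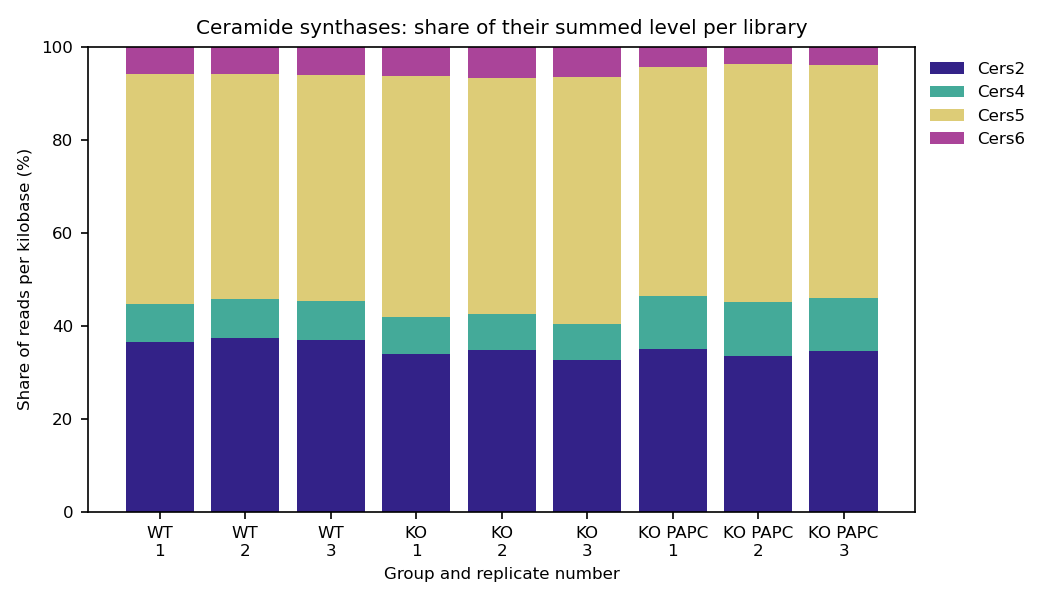
Share of each ceramide synthase in their summed level per kilobase of exon (y axis, percent) in each of the 9 libraries (x axis, group and replicate number). *Cers5* is the largest part throughout, and *Cers4* takes 11.5% on average in KO_PAPC against 7.78% in KO.

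*Degs1* (ENSMUSG00000038633, chromosome 1, 182275772 to 182282804, minus strand) encodes the desaturase that places the double bond of ceramide. It stood at 161, 151 and 159.8 CPM in WT, 134, 136 and 139 in KO and 209.9, 203 and 208 in KO_PAPC. KO libraries were lowest and KO_PAPC libraries highest, without overlap. The log2 difference of KO from WT was -0.21 ± 0.0286 (edgeR adjusted p = 5.90e-08). That of KO_PAPC was 0.60 ± 0.0285 from KO (adjusted p = 1.31e-20) and 0.39 ± 0.0322 from WT (adjusted p = 8.72e-11). As the most abundant member per kilobase, it also had the second largest difference under PA/PC among the genes that were higher.

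The enzymes that use ceramide went in opposite directions. *Sgms1* (ENSMUSG00000040451, chromosome 19, 32122727 to 32389714, minus strand), the Golgi sphingomyelin synthase, stood at 24.6, 25.6 and 22.7 CPM in WT, 34.6, 31.3 and 35.4 in KO and 21.5, 21.5 and 21.8 in KO_PAPC. KO libraries were the highest, and no groups overlapped. Between KO and WT its log2 fold change of 0.47 ± 0.0520 (edgeR adjusted p = 7.00e-10) was the largest of the 10. In KO_PAPC versus KO it was -0.65 ± 0.0529 (adjusted p = 1.08e-13). In KO_PAPC versus WT it was -0.18 ± 0.0559 (adjusted p = 6.58e-03), which DESeq2 did not call (adjusted p = 0.0834). *Ugcg* (ENSMUSG00000028381, chromosome 4, 59189257 to 59222833, plus strand), the glucosylceramide synthase that opens the glycosphingolipid branch, stood at 95.6, 92.0 and 92.5 CPM in WT, 83.8, 89.2 and 90.6 in KO and 112, 106 and 107 in KO_PAPC. KO_PAPC libraries were the highest and KO libraries only a little under WT. Its log2 fold change was 0.30 ± 0.0344 in KO_PAPC versus KO (adjusted p = 8.28e-10) and 0.20 ± 0.0350 in KO_PAPC versus WT (adjusted p = 1.28e-05), and the latter was lost on library totals (0.040, adjusted p = 0.309). In KO versus WT it was -0.089 ± 0.0324 (adjusted p = 0.0144), which was lost in DESeq2 (adjusted p = 0.0522) and without KO replicate 1 (-0.056, adjusted p = 0.155).

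**Figure D3:**
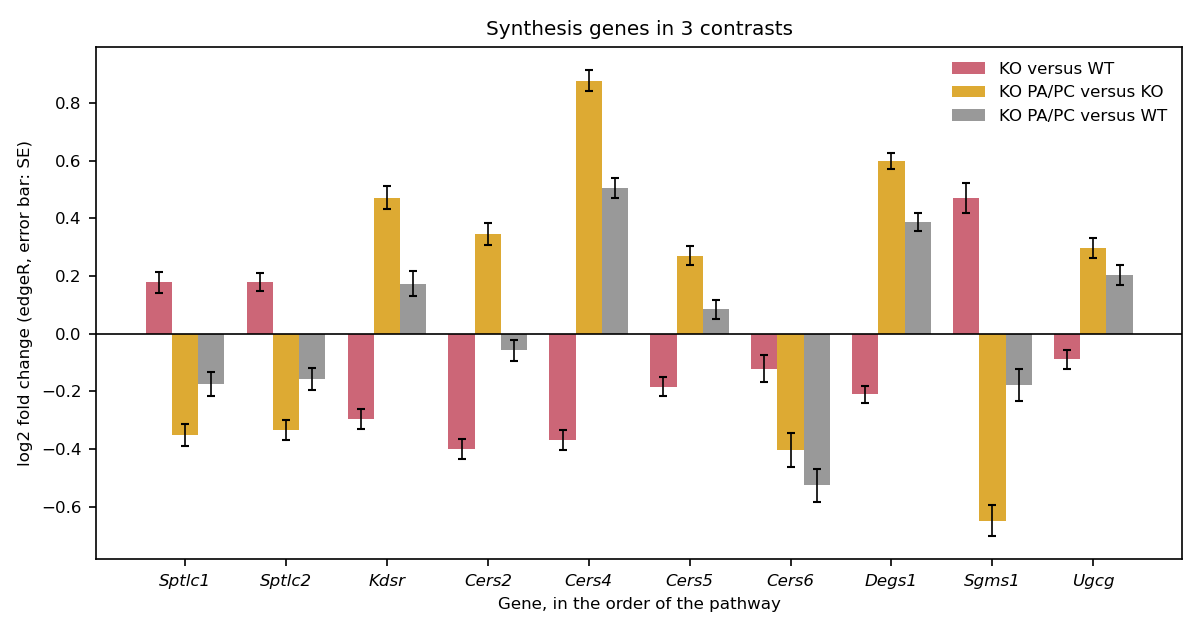
Log2 fold change (y axis) of the 10 synthesis genes (x axis, in pathway order) in each of the 3 comparisons; bars start at 0 and error bars are SE from edgeR. *Cers4* reaches 0.88 and *Sgms1* -0.65 in KO_PAPC versus KO.

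Beyond the 10 members, 49 other genes of sphingolipid metabolism were listed by role, of which 44 were high enough to be tested in each comparison. In KO versus WT 21 were higher, 14 lower and 9 not called, with a median log2 fold change of 0.080. In KO_PAPC versus KO 11 were higher, 26 lower and 7 not called, with a median of -0.29, where the synthesis genes had 0.28. In KO_PAPC versus WT 13 were higher, 26 lower and 5 not called, with a median of -0.25. On library totals KO_PAPC had 6 of them higher than KO (31 lower), and 7 higher than WT (28 lower). These counts stand against the same backgrounds of 73.8%, 81.8% and 70.6% called.

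Of the 10 listed genes for further head groups and glycans, 8 were lower and 2 higher in KO_PAPC versus KO, and 6 were higher, 1 lower and 3 not called in KO versus WT. The list spans several branches. The 8 lower genes were *Sgms2* and *Samd8*, which transfer phospho head groups, *Ugt8a* and *Gal3st1* of the galactosylceramide branch, and *B4galt5*, *B4galt6*, *St8sia1* and *A4galt*, which act after *Ugcg*. The 2 higher genes, *St3gal5* at 0.30 (edgeR adjusted p = 6.91e-05) and *B4galnt1* at 0.33 (adjusted p = 2.44e-03), also act after *Ugcg*, and all but the 4 genes given values below were named after their values were seen. *St8sia1*, the GD3 synthase, stood at 18.3, 18.8 and 16.6 CPM in WT, 48.5, 49.6 and 49.7 in KO and 4.43, 5.69 and 5.18 in KO_PAPC. The group order was the reverse of that of *Ugcg*, with KO far above and KO_PAPC far below WT. KO versus WT gave 1.46 ± 0.0470 on the log2 scale (edgeR adjusted p = 4.75e-24), and KO_PAPC versus KO one of -3.27 ± 0.0657 (adjusted p = 2.64e-32). *B4galt5*, which makes lactosylceramide from the product of *Ugcg*, had 0.94 (adjusted p = 8.17e-23) and -1.17 (adjusted p = 1.33e-27) in the same comparisons. *A4galt*, the globotriaosylceramide synthase, and *Gal3st1*, the sulfatide sulfotransferase, had -1.85 (adjusted p = 2.16e-19) and -2.33 (adjusted p = 7.10e-14) in KO_PAPC versus KO. The size for *Gal3st1* rests on few reads, with means of 3.55 CPM in KO and 0.705 in KO_PAPC.

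Among the 5 genes of ceramide transport and phosphorylation, 4 were higher and 1 lower in KO versus WT, and 3 were lower and 2 not called in KO_PAPC versus KO. *Cerk*, the ceramide kinase, had log2 fold changes of 0.89 (edgeR adjusted p = 2.51e-14) and -0.71 (adjusted p = 1.27e-11) in these comparisons, and *Gltp*, the glycolipid transfer protein, had 0.51 (adjusted p = 2.28e-14) and -0.67 (adjusted p = 3.64e-17). *Cert1*, which carries ceramide to the Golgi, had 0.20 (adjusted p = 2.62e-05) in KO versus WT and 0.049 (adjusted p = 0.246) in KO_PAPC versus KO. *Cptp*, the ceramide-1-phosphate carrier, was called lower in KO versus WT at -0.15 (adjusted p = 0.0360), but its groups overlapped and the call was lost without KO replicate 3 (adjusted p = 0.188), WT replicate 1 (adjusted p = 0.161) or WT replicate 2 (adjusted p = 0.0539). Of the remaining synthases and desaturase, *Cers1*, known from neurons, had -1.05 (adjusted p = 2.43e-11) in KO versus WT and 1.75 (adjusted p = 4.72e-20) in KO_PAPC versus KO. It is uncertain, since 42.7% of its exon bases overlap *Gdf1* and *Upf1*.

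The 13 tested genes of ceramide and sphingomyelin breakdown were divided, with 3 higher, 7 lower and 3 not called in KO versus WT and 5 higher, 4 lower and 4 not called in KO_PAPC versus KO. *Galc*, the lysosomal galactosylceramidase, had -0.79 (edgeR adjusted p = 1.43e-13) and 0.57 (adjusted p = 9.57e-10) in these comparisons. *Smpd3*, a neutral sphingomyelinase, had 1.48 (adjusted p = 7.02e-11) in KO_PAPC versus KO. *Smpdl3b* was higher in KO versus WT, with 0.68 (adjusted p = 1.32e-08), and was not called between KO_PAPC and KO (0.029, adjusted p = 0.767). Of the 10 tested genes of sphingosine-1-phosphate metabolism and signalling, 8 were lower, 1 higher and 1 not called in KO_PAPC versus KO, against 5 higher, 2 lower and 3 not called in KO versus WT. *Sgpl1*, the lyase that ends the pathway, stood at 169, 176 and 176 CPM in WT, 194, 197 and 193 in KO and 116, 116 and 119 in KO_PAPC, with a log2 fold change of -0.74 ± 0.0288 in KO_PAPC versus KO (adjusted p = 2.58e-23). The KO_PAPC libraries lay well under both other groups. The exporter gene *Spns2* had -2.59 (adjusted p = 1.17e-18), the kinase gene *Sphk1* -1.65 (adjusted p = 1.44e-05) and the receptor gene *S1pr1* -2.69 (adjusted p = 8.36e-11) there. The sizes for *Sphk1* and *S1pr1* rest on few reads, with means of 1.07 and 1.70 CPM in KO and 0.338 and 0.260 in KO_PAPC. With each library left out in turn they ranged from -2.04 to -1.38 for *Sphk1* and from -2.95 to -2.43 for *S1pr1*. The receptor gene *S1pr3* had 0.99 (adjusted p = 1.80e-07) in KO versus WT and -0.042 (adjusted p = 0.772) in KO_PAPC versus KO.

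**Figure D4:**
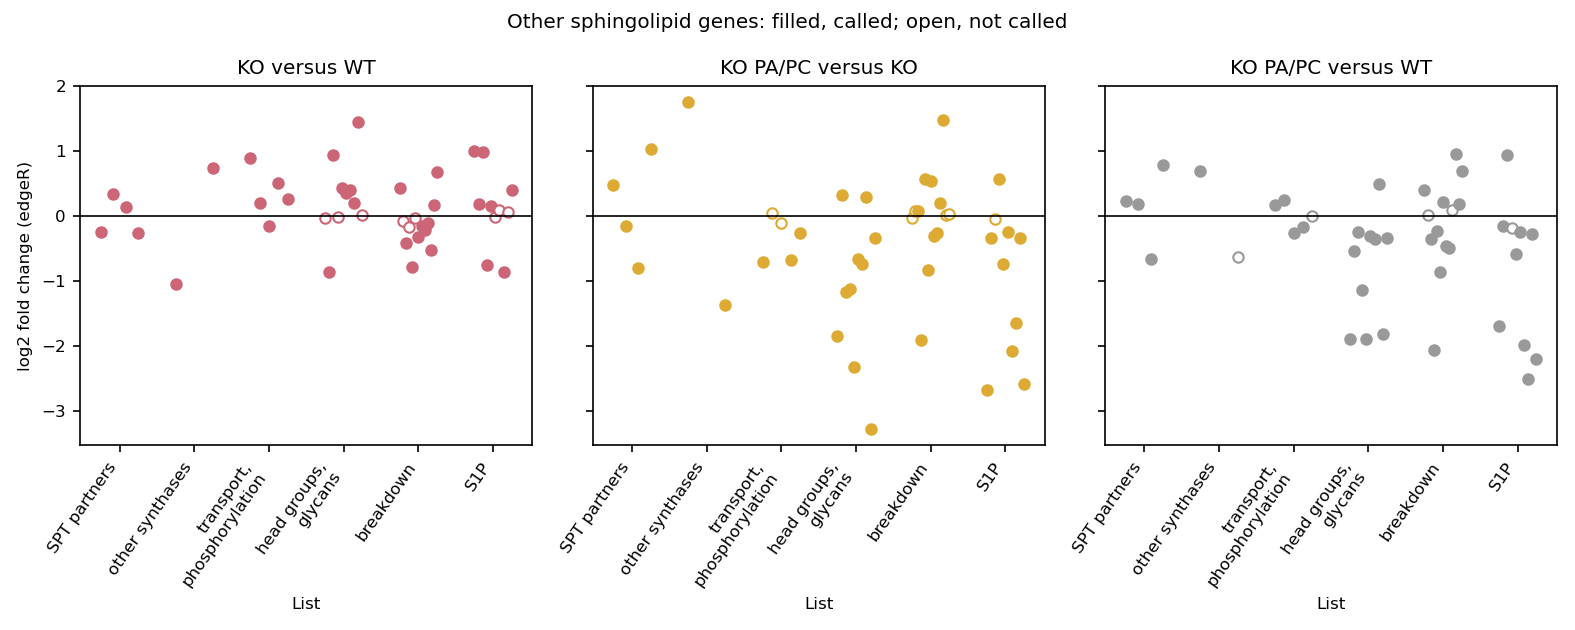
Log2 fold change (y axis) of the 44 tested other sphingolipid genes, grouped by role (x axis), in each of the 3 comparisons; filled points were called by edgeR (adjusted p under 0.05) and open points were not. In KO_PAPC versus KO 26 points lie lower and called, the lowest at -3.27 (*St8sia1*).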

How the data were processed

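RNA was measured in 9 EB libraries. The authors made the deposited values, raw read counts per Ensembl gene, from 51-cycle single-end reads of libraries that do not mark strand, mapped to GRCm38 with STAR 2.7.2b and counted with featureCounts 1.6.5, without reads that mapped or overlapped more than once. The study's methods also describe another pipeline for a first comparison of KO and WT EBs. The submitters' processing notes give the same tools for all 9 libraries, and whether any of them was counted in another way was not tested.

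Symbols, positions and exon lengths came from GENCODE M21 (GRCm38), and 241 of 55471 IDs had no match. Each comparison was fitted on its own 6 libraries in edgeR 4.0.16 (R 4.3.3; quasi-likelihood F-test, TMM factors, filterByExpr), with Benjamini-Hochberg adjustment over all genes tested and SE from the F statistic. CPM were computed on TMM-scaled totals of all 9 libraries. Shares of ceramide synthases were compared by two-sided exact permutation. Every replicate pair differed beyond sampling noise (chi-square over degrees of freedom of 1.22 to 3.45). The labels do not say that replicates came from separate cultures, so p-values measure only the spread between these libraries.

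The members and lists were chosen with earlier results of these data known. Named genes were the 10 members, the serine palmitoyltransferase partners and, for each of the 5 remaining lists and each comparison, the 2 called genes with the largest absolute change and a mean of at least 1 CPM. A gene named by this rule is not reported here. The alternatives were DESeq2 1.42.0, RLE factors, library totals, no filter, a mean of at least 10 counts, all 9 libraries in one fit, the replicate block, a minimum fold of 1.5, other length scalings and each library left out. Library totals, other lengths and left-out libraries for the summed levels and the subunit ratio were added after the data were seen. Promoter windows were those of RefSeq (GRCm38.p6), in which all 10 members were matched.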

Additional observations from a re-analysis of the deposited data

How the results depend on the processing

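Of 1344 refits of the named genes under an alternative, 1250 changed neither sign nor call, 87 lost a call, 2 gained one and 5 changed sign. A minimum fold of 1.5 left 0 synthesis genes in KO versus WT, 1 (1 higher, 0 lower) in KO_PAPC versus KO and 0 in KO_PAPC versus WT, and 8 (5 higher, 3 lower), 20 (3 higher, 17 lower) and 13 (3 higher, 10 lower) of the other sphingolipid genes. That alternative asks for a larger change by construction. Library totals left 6 other genes higher in KO_PAPC versus KO and 7 in KO_PAPC versus WT, and 2 synthesis genes higher in KO_PAPC versus WT. They moved the median of the 10 genes to 0.12 in KO_PAPC versus KO and -0.15 in KO_PAPC versus WT. They also turned *Cers5* to -0.080 in KO_PAPC versus WT, and *Cert1* to -0.12 and *Smpdl3b* to -0.14 in KO_PAPC versus KO. With single libraries left out *Smpdl3b* ranged from -0.069 (without KO_PAPC replicate 3) to 0.13 (without KO_PAPC replicate 1), and was -0.031 without KO replicate 3. Without length scaling the *Cers5* and *Cers6* share differed by -7.99 points in KO_PAPC versus KO and -4.24 points in KO_PAPC versus WT. With each library left out in turn, 8 to 10, all 10, and 8 to 9 synthesis genes and 32 to 35, 34 to 37 and 36 to 40 other genes were called in the 3 comparisons.

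Same-numbered libraries deviated from their group means with correlations of -0.071 to 0.12 across genes, which are not independent. The highest, 0.12 and 0.068, were between KO_PAPC and WT libraries. There a replicate block raised the number of all genes called from 11760 to 12223, and it lowered that number in both other comparisons. Whether the replicate numbers pair the samples is not settled by these values. With the replicate block 10, 10 and 9 synthesis genes were called, and 35, 35 and 40 other genes. Depth was even and the low genes left untested (*Sptlc3*, *Sptssb*, *Degs2*, *Acer1*, *S1pr5*) cannot be compared at these counts.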
